A study of Homo sapiens with 8 samples.

Results

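The genes described are those of the MYC and MAX network: MYC and MYCN, their partner MAX, the antagonists MXD1, MXD3, MXD4, MXI1 and MNT, and the parallel pair MLX and MLXIP (MondoA). They were chosen by gene symbol in the probe annotation supplied with the data. Of the 10 genes, 9 were measured, each by 1 probe set, among 17687 named genes on the array, and MXD4 carried no named probe set here. Total RNA came from 2 human chronic myeloid leukaemia lines, KBM5 and K562, grown in serum-containing medium and labelled with biotin for expression arrays. In each line 1 array was measured for each of 4 treatments: OR21 followed by imatinib (the combination), imatinib alone (IM), OR21 alone, and no drug (control). OR21 was given at 100 nM for 3 days and IM at 1000 nM, with RNA taken 24 hours after IM was added. OR21 (OR-2100) is a demethylating agent according to the title of the series, and imatinib inhibits BCR-ABL1, the fusion kinase that drives these leukaemias. For the combination, the amount of OR21 is known from the protocol alone. The study set out to find expression particular to the combination.

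Both lines are established lines, and no line and treatment had a second array, so no spread between repeats of one condition was measured and p-values measure only the spread left by the models below. A signal counted as above background when it exceeded 95% of the negative controls on its array, a limit between 161 and 263 intensity units. Between 5874 and 7083 genes were above it, and the median intensity of all probe sets lay between 77.8 and 83.3. Of 6 named myeloid markers, 4 to 6 were above background in KBM5, against 1 or 2 in K562. Of 5 named erythroid markers, 1 was above background in KBM5, the transferrin receptor gene TFRC, against 4 or 5 in K562. At most 1 of 4 lymphoid markers was above background on any array, and 2 of 3 epithelial markers, EPCAM and KRT19, were above it in K562. Some markers moved with IM, and differently in the lines. Over both lines limma called 0 of 5 erythroid and 0 of 6 myeloid markers, against 7.63% of all genes called either way. At an unadjusted p under 0.05 there were 0 and 2 of them, and 4262 of 17687 genes. In KBM5 5 of 6 myeloid markers rose, 1 fell (MPO, myeloperoxidase) and 1 of 5 erythroid markers fell (TFRC), against 10.8% of all genes called higher, 10.6% lower and 21.4% either way. In K562 3 of 5 erythroid markers rose (HBZ, KLF1 and EPOR) and 1 of 6 myeloid markers fell (SPI1), against 5.34% called higher, 8.05% lower and 13.4% either way. The sums are carried mostly by single genes. The summed intensity of the erythroid markers in K562 was 520215 in the combination and 516913 with IM alone, against 240529 with OR21 alone and 96292 in the control, with HBZ alone at 473566, 467477, 193282 and 58796 in the same order. In KBM5 it was 1737 in the combination and 2367 with IM alone, against 19949 with OR21 alone and 19807 in the control, most of it from TFRC. The summed intensity of the myeloid markers in KBM5 was 294237 in the combination and 324635 with IM alone, against 88397 with OR21 alone and 41195 in the control, with LYZ, the lysozyme gene, at 185905, 254951, 31218 and 12342 in the same order. MPO in KBM5 was 5282 in the combination and 35.9 with IM alone, against 11442 with OR21 alone and 65.8 in the control, so it was high on the OR21 arrays. In K562 the myeloid sum lay between 1620 and 2939. The part of these shifts in the results below was not tested.

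MYC is a basic helix-loop-helix leucine zipper transcription factor that binds E-box DNA only as a heterodimer with MAX and raises genes of growth, ribosome production and metabolism. MXD1, MXD3, MXD4, MXI1 and MNT also need MAX, bind the same sites, and recruit SIN3 and histone deacetylases to repress them. MAX is therefore shared between activating and repressing dimers. MLX takes the place of MAX in a parallel branch, where it pairs with MLXIP to respond to glucose-derived metabolites and also with MXD1, MXD4 and MNT. BCR-ABL1 signalling is known to sustain MYC in these leukaemias, and MXD1 and MXI1 are known to be induced when blood cells differentiate.

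Promoter windows of members were read from RefSeq (GRCh38.p14) as the 250 bases before each listed start, and searched on both strands for the E-box CACGTG, the FOXO motif GTAAACA and the STAT motif TTCNNNGAA. There were 12 windows for 9 of the members, MXD4 among them. MYC had no listed window, so its promoter was not searched. The E-box was found in 3 windows, those of MXD4, MNT and MLX, against 6.34% of all 35116 promoter windows. The FOXO motif was found in 1, at MXI1, against 2.98% of all windows, and the STAT motif in 0, against 6.57%. The windows of MLX and of one MXI1 start are shown, because these genes changed in opposite directions with IM in K562, with the E-box or FOXO match in capitals. The first lies at chr17:42566850-42567099 on the plus strand, with its E-box beginning 50 bases before the start of MLX. The second lies at chr10:110209981-110210230 on the plus strand, with its FOXO match, read on the minus strand, beginning 151 bases before the second of 3 listed MXI1 starts.
MLX: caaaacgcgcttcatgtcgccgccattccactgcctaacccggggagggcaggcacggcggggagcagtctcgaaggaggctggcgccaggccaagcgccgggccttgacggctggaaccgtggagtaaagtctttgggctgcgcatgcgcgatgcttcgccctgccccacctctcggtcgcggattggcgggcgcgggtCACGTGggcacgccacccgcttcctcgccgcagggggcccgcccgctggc
MXI1: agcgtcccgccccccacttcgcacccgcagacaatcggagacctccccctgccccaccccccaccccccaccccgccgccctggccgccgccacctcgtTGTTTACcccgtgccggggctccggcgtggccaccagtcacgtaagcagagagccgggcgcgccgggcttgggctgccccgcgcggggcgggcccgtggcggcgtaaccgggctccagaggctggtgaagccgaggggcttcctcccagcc
A match is a description of the letters in these windows and was not measured as a binding site.

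MYC fell with IM in both lines. In KBM5 its intensity was 3178 in the combination and 4122 with IM alone, against 15088 with OR21 alone and 20650 in the control. In K562 it was 2768 in the combination and 1918 with IM alone, against 11202 with OR21 alone and 12058 in the control. All 4 arrays with IM lay below all 4 without it, and all 8 were above background. How many of all genes separate in this way was not counted. Over both lines MYC fell by 2.31 ± 0.21 (SE) on the log2 scale, 4.96-fold, in a limma model of line and treatment (adjusted p = 0.00565 over all genes, lower in 4 of 4 array pairs). For this effect 1 of 9 members was called lower, MYC, and 0 higher, against 4.87% of all genes called lower, 2.75% higher and 7.63% either way. Without the line in the model the limma adjusted p of MYC was 0.156, and 0 of all genes were called.

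Fitted for each line, with the 2 array pairs of a drug as repeats, the log2 difference of MYC with IM was -2.29 ± 0.25 (SE) in KBM5 (limma adjusted p = 0.000126) and -2.33 ± 0.25 in K562 (limma adjusted p = 0.000284). The difference between the lines was 0.05 ± 0.35, with a 95% interval of -0.73 to 0.83 and a limma adjusted p of 0.958. Both calls were kept in each of the 14 alternatives run for them. These alternatives are not independent checks. Leaving out an array of the other line does not alter a line's estimate, and leaving out one of the same line rests it on 1 array pair. Across the arrays MYC ran downward from the KBM5 control to KBM5 OR21, K562 control, K562 OR21, KBM5 IM, KBM5 combination, K562 combination and K562 IM. The neighbours K562 control and K562 OR21, and KBM5 combination and K562 combination, differed by less than the residual SD of 0.29 log2 units, and the gap of 1.44 between K562 OR21 and KBM5 IM was the widest. Averaged over treatments, MYC was 0.63 ± 0.21 log2 units higher in KBM5 than in K562, which did not pass the test (limma adjusted p = 0.0592) and passed it after quantile normalization (0.76, adjusted p = 0.0347).

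**Figure D1:**
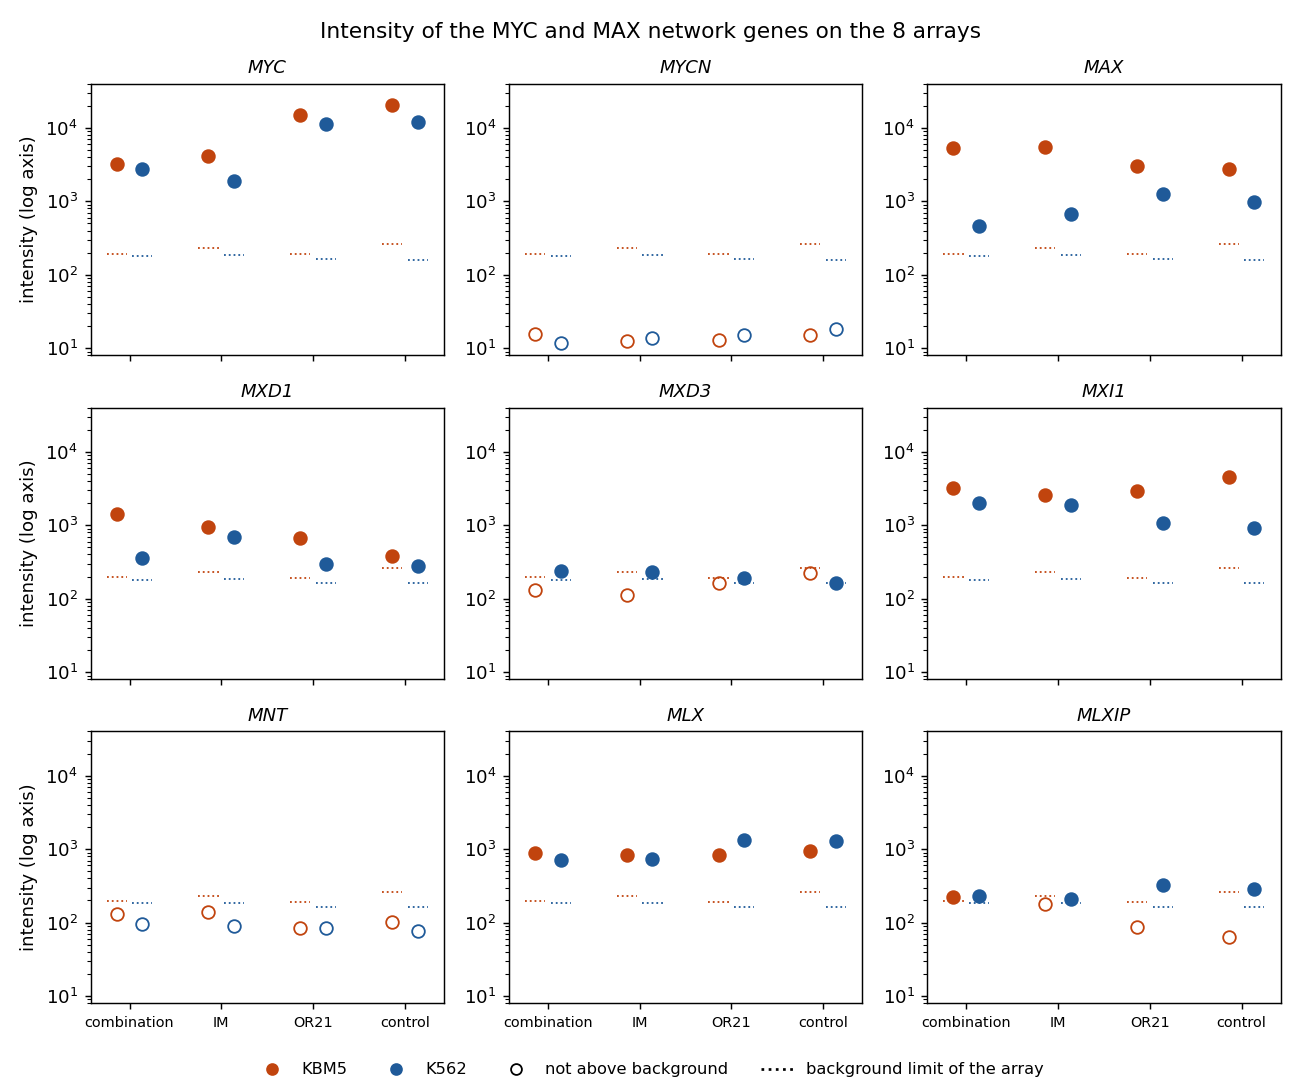
Intensity (log axis) of the 9 measured genes on each of the 8 arrays, by treatment, with KBM5 in orange and K562 in blue. Each point is 1 array, open points are not above the background limit of their array (dotted lines), and MYC is lower on the 4 arrays with IM than on the 4 without it, while MAX moves in opposite directions in the lines.

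MYCN, the paralog of MYC known from neuroblastoma, was not above background on any array, with an intensity between 11.6 and 18.0. No fold is given for it.

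MAX, the obligate partner, went in opposite directions with IM in the lines. In KBM5 its intensity was 5306 in the combination and 5495 with IM alone, against 3065 with OR21 alone and 2740 in the control. In K562 it was 458 in the combination and 664 with IM alone, against 1276 with OR21 alone and 993 in the control. Within each line the 2 arrays with IM did not overlap the 2 without it. The share of all genes that separate in this way, here and for MXD1, MXI1 and MLX below, was not counted. MAX rose by 0.90 ± 0.27 (SE) log2 units in KBM5 (1.86-fold, limma adjusted p = 0.0375) and fell by 1.03 ± 0.27 in K562 (2.04-fold, limma adjusted p = 0.0307).

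The difference between the lines in the IM effect on MAX was itself called, at 1.93 ± 0.38 log2 units (KBM5 minus K562, 95% interval 1.08 to 2.77, limma adjusted p = 0.0102). For this difference 2 of 9 members were called, MAX and MLXIP, both higher, against 5.25% of all genes called higher, 4.90% lower and 10.2% either way. Leaving out either the OR21 or the combination array of K562 gave a difference for MAX of 1.48 with an adjusted p of 0.126. Averaged over both lines the IM effect on MAX was -0.07 ± 0.41 and passed no test (limma adjusted p = 0.95), with 0.04 after quantile normalization. The fall in K562 was larger in the pair with OR21 (-1.48) than in the pair without it (-0.58), and its adjusted p was 0.0542 after quantile normalization. Leaving out a K562 array gave an adjusted p of 0.516 for OR21 or the combination and of 0.0801 for the control or IM. The rise in KBM5 was 0.79 in the pair with OR21 and 1.00 in the pair without it, and leaving out a KBM5 array gave an adjusted p of 0.186 for the control or IM and of 0.0861 for OR21 or the combination.

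MAX also showed the widest gap between the lines among the members. It was 2.33 ± 0.41 log2 units higher in KBM5 than in K562 (5.02-fold, limma adjusted p = 0.0051), and the lowest KBM5 array, at 2740, lay above the highest K562 array, at 1276. The number of all genes whose lines separate like this was not counted. Of the 9 members, 3 were called higher in KBM5 than in K562, MAX, MXD1 and MXI1, and 0 lower, against 15.0% of all genes called higher, 17.0% lower and 32.0% either way. The other gaps were 1.03 ± 0.29 for MXD1 (limma adjusted p = 0.0354) and 1.21 ± 0.32 for MXI1 (limma adjusted p = 0.0274). The gap for MXD1 had adjusted p = 0.0558 with 16 added before the log, 0.112 without either OR21 array and 0.0908 without either combination array. The gap for MXI1 had adjusted p = 0.0632 without either control array and 0.0944 without either OR21 array. The call for MAX was kept in all 13 alternatives run for it.

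**Figure D2:**
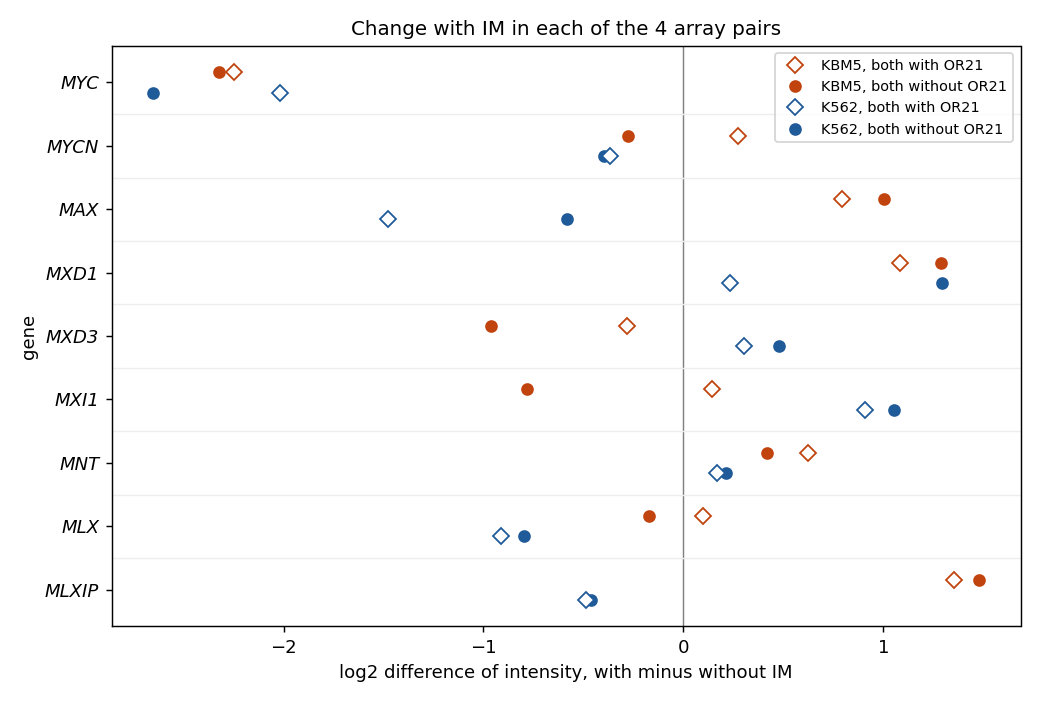
Log2 difference of intensity with minus without IM for each gene, in the 4 disjoint array pairs, with KBM5 in orange and K562 in blue, diamonds for pairs in which both arrays had OR21 and circles for pairs without it. MYC lies between -2.65 and -2.02 in all 4 pairs, MAX and MLXIP lie right of 0 in KBM5 and left of 0 in K562, and MYCN and MNT on all arrays, MXD3 on the 4 KBM5 arrays and MLXIP on 3 of them are not above background.

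Among the antagonists, MXD1 rose with IM in KBM5. Its intensity in KBM5 was 1426 in the combination and 938 with IM alone, against 674 with OR21 alone and 384 in the control. In K562 it was 353 in the combination and 682 with IM alone, against 300 with OR21 alone and 278 in the control. All 4 pairs moved upward, and within each line the arrays with IM lay above those without it. MXD1 rose by 1.18 ± 0.28 (SE) log2 units in KBM5 (2.27-fold, limma adjusted p = 0.0128), and its adjusted p was 0.0872 without the KBM5 control or IM array. In K562 the value was 0.76 ± 0.28 and did not pass the test (limma adjusted p = 0.11), with 1.29 in the pair without OR21 and 0.23 in the pair with it. The lines differed by 0.42 ± 0.40 (95% interval -0.47 to 1.31, limma adjusted p = 0.607), so a difference between them was not shown. Over both lines the value was 0.97 ± 0.29, short of the threshold (limma adjusted p = 0.0974).

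MXI1, a further SIN3-recruiting antagonist, rose with IM in K562. In KBM5 its intensity was 3201 in the combination and 2593 with IM alone, against 2902 with OR21 alone and 4465 in the control. In K562 it was 2034 in the combination and 1891 with IM alone, against 1083 with OR21 alone and 910 in the control. The K562 arrays with IM lay above those without it, while in KBM5 the arrays overlapped and the pairs had opposite signs (0.14 with OR21 and -0.78 without it). MXI1 rose by 0.98 ± 0.27 log2 units in K562 (1.98-fold, limma adjusted p = 0.0379), and leaving out a K562 array gave an adjusted p of 0.366 for the control or IM and of 0.247 for OR21 or the combination. In KBM5 the value was -0.32 ± 0.27 (limma adjusted p = 0.491). The difference between the lines, -1.30 ± 0.38 with a 95% interval of -2.15 to -0.45, missed the threshold (limma adjusted p = 0.0595) and passed it after quantile normalization (-1.36, adjusted p = 0.0463).

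MXD3, an antagonist known to be expressed in S phase, was near the background limit. Its intensity in K562 was 237 in the combination and 231 with IM alone, against 192 with OR21 alone and 165 in the control, all above background. In KBM5 it lay between 114 and 222 and was not above background on any of the 4 arrays, so no fold is given there. The log2 difference with IM in K562 was 0.39 ± 0.25 and did not pass the test (limma adjusted p = 0.376). MNT, a broadly expressed antagonist, was not above background on any array (76.7 to 138), and no fold is given for it.

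Set against its antagonists, MYC signal went down relative to that of MXD1 and MXI1 in all 4 array pairs, and relative to that of MXD3 in both K562 pairs. The log2 change of MYC minus that of MXD1 was -3.33 in the KBM5 pair with OR21 and -3.61 in the pair without it. In K562 it was -2.25 in the pair with OR21 and -3.95 in the pair without it, so the ratio of MYC to MXD1 signal changed by between 4.76-fold and 15.4-fold. For MXI1 the difference of changes was -2.39 and -1.54 in KBM5, and -2.93 and -3.71 in K562, in the same order of pairs. For MXD3 in K562 it was -2.32 and -3.13. MNT, and MXD3 in KBM5, were not above background, so no change of MYC relative to them is given. The fall of MYC exceeded in size the change of MXD1 and MXI1 in all 4 pairs and that of MXD3 in both K562 pairs. These comparisons are of changes and not of levels, since the signals of different probe sets are not on one scale, and they were not tested.

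**Figure D3:**
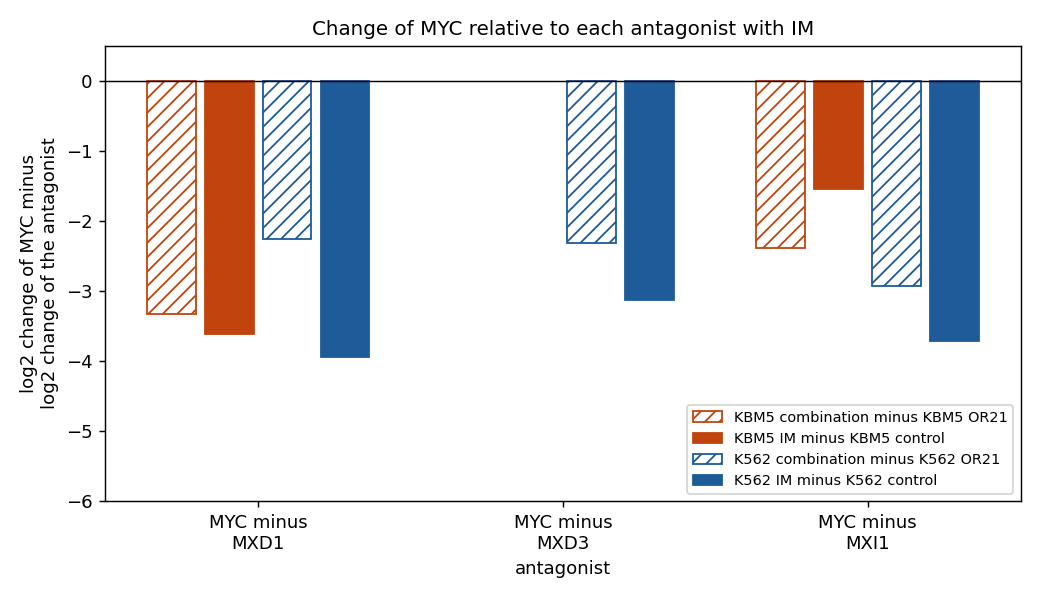
Log2 change of MYC with IM minus the log2 change of each antagonist, as bars from 0, in the 4 array pairs, with KBM5 in orange and K562 in blue and hatching for the pairs with OR21 on both arrays. All bars lie below 0, between -3.95 and -1.54, and MNT and the KBM5 pairs of MXD3 are left out because their signals are not above background.

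MLX, the partner in the parallel branch, fell with IM in K562. Its intensity there was 708 in the combination and 734 with IM alone, against 1331 with OR21 alone and 1274 in the control, and these pairs of arrays did not overlap. In KBM5 it was 880 in the combination and 826 with IM alone, against 821 with OR21 alone and 932 in the control, with all 4 arrays overlapping. MLX fell by 0.85 ± 0.23 log2 units in K562 (1.81-fold, limma adjusted p = 0.0364). Its adjusted p was 0.0679 after quantile normalization, and leaving out a K562 array gave 0.297 for the control or IM and 0.341 for OR21 or the combination. In KBM5 the value was -0.04 ± 0.23 (95% interval -0.56 to 0.48), and the difference between the lines, 0.82 ± 0.33, did not pass the test (limma adjusted p = 0.165).

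MLXIP, the glucose-responsive partner of MLX, lay close to the background limit in KBM5, which leaves its response to IM there unmeasured in size. In KBM5 its intensity was 221 in the combination and 179 with IM alone, against 86.5 with OR21 alone and 64.2 in the control, and only the combination array was above background. In K562 it was 229 in the combination and 207 with IM alone, against 321 with OR21 alone and 285 in the control, all above background. The fitted log2 difference with IM was 1.42 ± 0.23 in KBM5 (limma adjusted p = 0.0014) and -0.48 ± 0.23 in K562 (limma adjusted p = 0.218). With the KBM5 arrays without IM set to their background limits, the KBM5 difference was -0.17, so neither a rise in KBM5 nor its size is established. The fitted difference between the lines passed the test at 1.89 ± 0.32 (limma adjusted p = 0.00493) and carries the same limit, and leaving out a K562 array gave an adjusted p of 0.0548 for the control or IM and of 0.052 for OR21 or the combination. No fold is given for KBM5.

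Counted by line, the test called 3 of 9 members higher with IM in KBM5 (MAX, MXD1 and, against arrays at background, MLXIP) and 1 lower (MYC), against 10.8% of all genes called higher, 10.6% lower and 21.4% either way. In K562 it called 1 of 9 higher (MXI1) and 3 lower (MYC, MAX and MLX), against 5.34% called higher, 8.05% lower and 13.4% either way. The median log2 difference of the members with IM over both lines was -0.07, against 0.06 for all genes. MYC is the one member called in both lines in the same direction, and the share of all genes called in this way was not counted.

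OR21 changed no member past the threshold. Over both lines the log2 differences with OR21 lay between -0.10 and 0.26 for the 9 members, and 0 of 9 were called, against 0% of all genes. At an unadjusted p under 0.05 there were 0 members and 622 genes. In KBM5, where 0.543% of genes were called (0.486% higher and 0.0565% lower), 0 members were, and 1, MXD1, had an unadjusted p under 0.05 (0.71 ± 0.28, limma adjusted p = 0.345). In K562, where 0.0905% of genes were called (all of them higher), 0 members were, and 0 had an unadjusted p under 0.05. MXD1 in K562 had -0.42 ± 0.28 with OR21 (limma adjusted p = 0.999), and the difference between the lines, 1.13 ± 0.40, did not pass the test (limma adjusted p = 0.547, with 0.102% of all genes called, 0.0452% higher and 0.0565% lower). For MYC the OR21 difference was -0.41 ± 0.25 in KBM5 (95% interval -0.97 to 0.14) and 0.21 ± 0.25 in K562 (95% interval -0.34 to 0.77). The promoter windows of the members, with none for MYC, held between 10 and 35 CpG dinucleotides, against a median of 11 over all windows. Their methylation was not measured here.

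**Figure D4:**
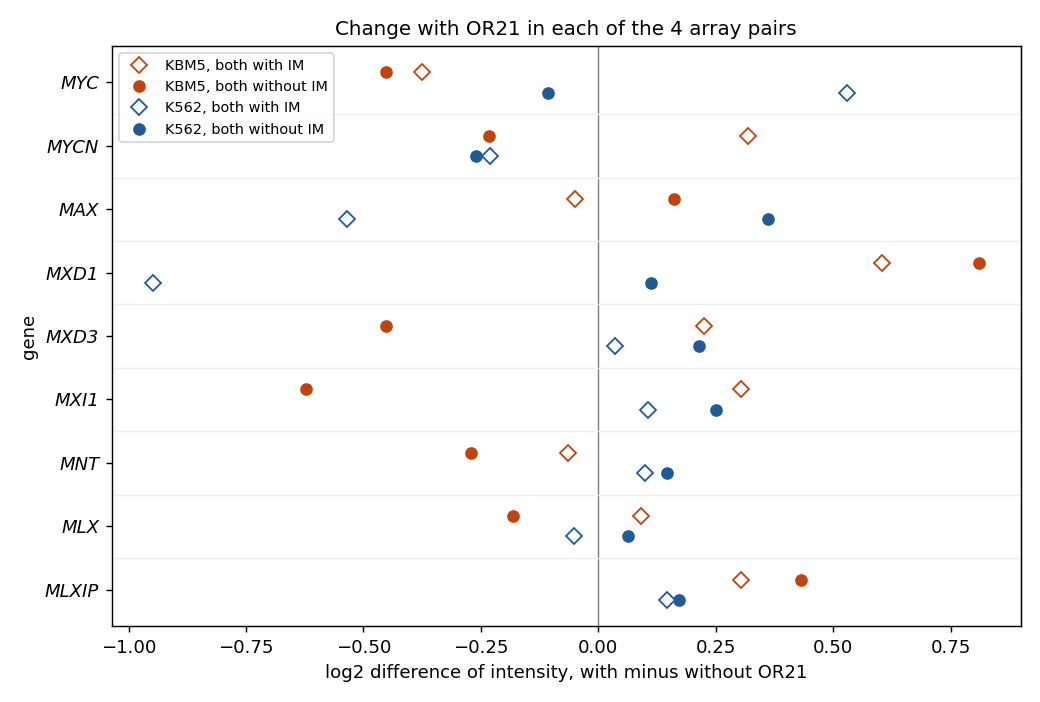
Log2 difference of intensity with minus without OR21 for each gene, in the 4 disjoint array pairs, with KBM5 in orange and K562 in blue, diamonds for pairs in which both arrays had IM and circles for pairs without it. The horizontal axis is narrower than that for IM, and MXD1 lies at 0.60 and 0.81 in KBM5, against -0.95 and 0.11 in K562.

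No member passed the test between the combination and IM alone. Against the control, MYC fell by 2.41 ± 0.29 log2 units over both lines, at the edge of the threshold (limma adjusted p = 0.0491), as 1 of 9 members called, against 0.136% of all genes called lower, 0.0622% higher and 0.198% either way. That call was lost with any 1 array left out, as were nearly all calls over all genes, so the loss is not particular to MYC. Against IM alone the combination differed for MYC by 0.08 ± 0.29 (95% interval -0.62 to 0.77), and the 9 members lay between -0.29 and 0.23 with 0 called, against 0% of all genes. At an unadjusted p under 0.05 there were 0 members and 605 genes in that comparison. The OR21 by IM interaction lay between -0.63 and 0.39 for the members, with 0 called against 0% of all genes, 0 members and 274 genes at an unadjusted p under 0.05, and standard errors of 0.36 to 0.82. Comparisons with the control and with IM alone share their arrays with the averaged effects above.

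Genes that work with the network were counted from lists for the effect of IM over both lines, for which 2.75% of all genes were called higher, 4.87% lower and 7.63% either way, with a median of 0.06. In the list of genes that MYC activates, 15 of 21 measured genes fell and 0 rose, against 4.87% and 2.75% of all genes, with a median of -1.50, and 9 of the 30 listed were not named here. The largest called falls were in SRM, the spermidine synthase (-3.46 ± 0.22, limma adjusted p = 0.00463), and NOP16, a ribosome assembly factor (-3.16 ± 0.25, limma adjusted p = 0.00507). They were followed by LDHA, which makes lactate (-2.75 ± 0.25, limma adjusted p = 0.00565), and DCTPP1, a nucleotide hydrolase (-2.59 ± 0.21, limma adjusted p = 0.00507). NOP16 and DCTPP1 exceeded the background limit on 3 of the 4 arrays given IM. CAD, POLR1B and PPRC1, also among the 15, exceeded it on 0 of those 4, so no fold is given for them. POLR1B and PPRC1 were not above it on any KBM5 array. In the list of MYC-repressed genes, 2 of 11 rose, against 2.75% of all genes, the cyclin-dependent kinase inhibitor genes CDKN1C (1.13 ± 0.19) and CDKN1B (1.03 ± 0.16), 0 fell, and 4 were not above background on any array.

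Of the coactivators of MYC, 4 of 14 measured fell and 1 rose, against 4.87% and 2.75% of all genes, with a median of -0.35. The falls were in the AAA+ ATPase genes RUVBL1 (-2.03 ± 0.19) and RUVBL2 (-1.84 ± 0.21), in ACTL6A, an actin-like subunit of chromatin complexes (-1.35 ± 0.24), and in WDR5, a MYC-binding subunit of histone methyltransferases (-1.25 ± 0.23). RUVBL1 exceeded the background limit on 3 of the 4 arrays given IM. CREBBP, an acetyltransferase gene named after its value was seen, rose by 1.15 ± 0.18. Of 10 measured corepressor genes used by the MXD proteins and MNT, such as SIN3A, HDAC1 and HDAC2, 0 were called in limma over both lines, with 2 at an unadjusted p under 0.05, and the median was -0.21. In KBM5 alone 2 of them were called higher and 2 lower, against 10.8% and 10.6% of all genes.

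Among 14 measured genes of MYC protein turnover, 1 was called over both lines, the deubiquitinase gene USP28. Averaged over both lines it was at least 1.16-fold lower with IM, at background on all 4 arrays with IM. Its KBM5 control, at 187, was also not above the limit of 263, so no bound is given for KBM5 alone. The 1 call among 14 stands beside 7.63% of all genes called either way. The median of the list was -0.60, against 0.06 for all genes. At an unadjusted p under 0.05 there were 8 of the 14, and 4262 of 17687 genes. In KBM5 alone 6 of the 14 were called lower and 1 higher, against 10.6% and 10.8% of all genes. In K562 alone 3 were called lower and 0 higher, against 8.05% and 5.34%. FBXW7, the ubiquitin ligase subunit that degrades MYC, had -0.16 ± 0.18 and exceeded the background limit on 1 of the 4 arrays given IM and 1 of the other 4. TXNIP, a classical target of MLXIP and MLX that restrains glucose uptake, rose by 2.44 ± 0.28 over both lines (limma adjusted p = 0.00915). Its fellow target ARRDC4 had 1.76 ± 0.44 and did not pass over both lines (limma adjusted p = 0.0607), and both were called higher in each line alone. In KBM5 that call for ARRDC4 was against arrays at background, with 178 in the combination and 280 with IM alone, against 85.6 with OR21 alone and 161 in the control, and only the IM array was above its limit. The remaining network members MYCL, MGA and MLXIPL were not called, and of them MGA alone was above background.

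**Figure D5:**
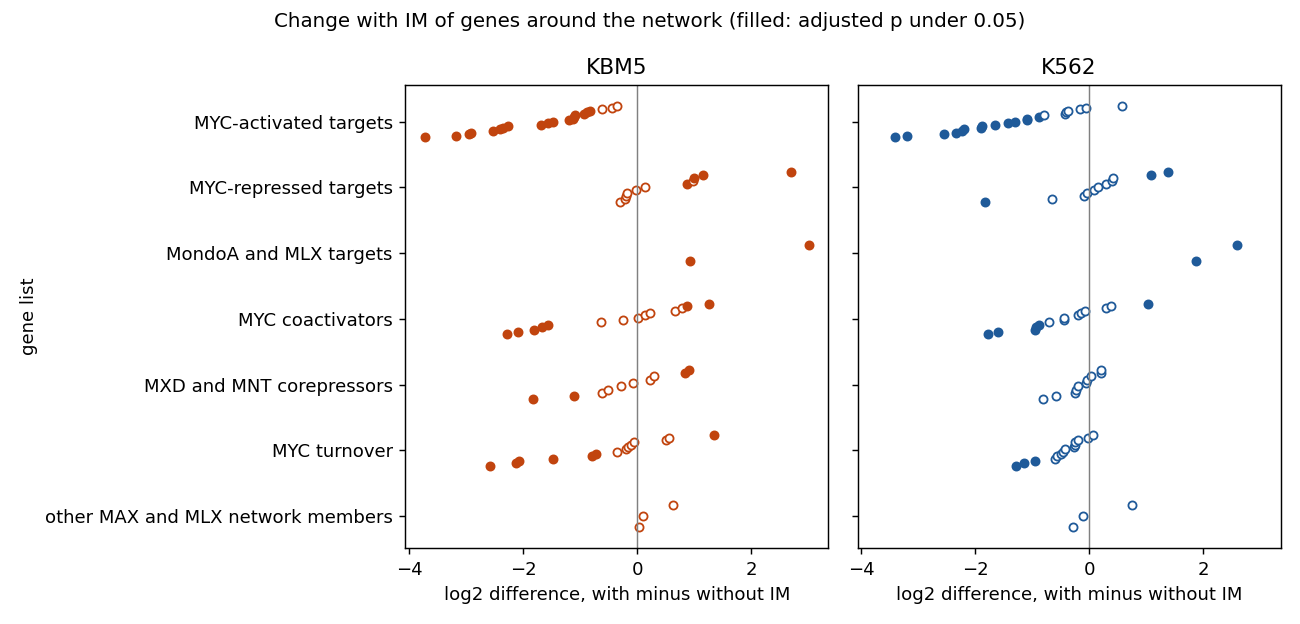
Log2 difference with minus without IM of the measured genes of each list, in KBM5 (left) and K562 (right), where each point is 1 gene and filled points have a limma adjusted p under 0.05. In the list of MYC-activated genes 18 of 21 fell in KBM5, against 10.6% of all genes, and 14 of 21 in K562, against 8.05%, and 0 were called higher in either. POLR1B and PPRC1, among the 18, are not above background on any KBM5 array, and CAD is not on any array with IM. In the list of MYC-repressed genes, CDKN1A, filled in K562, is not above background on any array. THBS1, filled in KBM5, is above it on the KBM5 combination array alone (1380, against 92.4 with IM alone).

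Among 7098 genes above background on 4 or more arrays, those whose values followed MYC most closely over the 8 arrays, after each line was centred on its own mean, were RCC2 (Pearson r = 0.998), DDX21, DDX10, NUP93 and NIP7. RCC2 acts in chromosome segregation, DDX21, DDX10 and NIP7 in ribosome production, and NUP93 in the nuclear pore. The genes most opposed to MYC were ATF7IP (r = -0.995), ITM2C, OS9, TAF8 and FBXL20. Among the members the same measure was -0.89 for MXD1, 0.72 for MLX, -0.38 for MXI1 and 0.03 for MAX. It pools both lines and describes neither alone. The fitted log2 difference with IM was -0.85 in K562 and -0.04 in KBM5 for MLX. For MAX it was -1.03 in K562 and 0.90 in KBM5. The 8 arrays fall into those with and those without IM, and all genes share these arrays, so the coefficients describe mainly this split and carry no p.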

How the data were processed

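Expression was measured on 8 arrays, 1 for each line and treatment. The authors deposited a linear intensity for each of 24351 probe sets. The sources used here do not name the software, summarisation or normalization behind these values. Gene names came from the supplied probe annotation: 17709 probe sets carried 1 symbol, for 17687 genes, and for 20 genes with several the brightest was kept. The log2 of each deposited value was analysed with limma 3.58.1 in R 4.3.3. The model of both lines held line and treatment (3 residual and 3.77 prior degrees of freedom). The model per line held a baseline, OR21 and IM term for each line (2 and 8.31), so the array pairs of a drug stand in for repeats and non-additivity of the drugs counts as spread. P-values were adjusted by Benjamini-Hochberg over all genes of each of 12 contrasts and called under 0.05. All 9 measured members are named, and of each list up to 4 called members with the largest change over both lines. CREBBP, CAD, POLR1B, PPRC1, FBXW7, ARRDC4, MGA, CDKN1A, THBS1 and the markers named were chosen beyond this rule, after their values were seen. A side not above background on any array gives a bound in place of a fold. Members and lists were chosen with earlier results of these data known. The procedure was tested on simulated data. Alternatives were quantile normalization, brighter genes alone, trended and robust moderation, log2(value + 16), the mean of probe sets, leaving out single arrays, the line left out, a common interaction term and other background percentiles.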

Additional observations from a re-analysis of the deposited data

Results flagged for a closer look

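The IM effect on MAX differed between the lines by 1.93 log2 units (KBM5 minus K562, limma adjusted p = 0.0102), with pairs at 0.79 and 1.00 in KBM5, against -1.48 and -0.58 in K562. The fitted IM effect on MLXIP differed by 1.89 (limma adjusted p = 0.00493), with pairs at 1.35 and 1.48 in KBM5, where 3 of 4 arrays were not above background and the size is not measured, against -0.49 and -0.46 in K562. For 2 further fitted values the signs of the pairs were opposite in the lines, but the test of the difference did not pass and the signals were at background, so no direction is read from them. They were -1.01 for MXD3 with IM (limma adjusted p = 0.111), with all 4 KBM5 arrays at background, and -0.29 for MNT with OR21 (limma adjusted p = 0.893), with all 8 arrays at background.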

How the results depend on the processing

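No paired analysis was possible because no replicate numbers exist with 1 array for every line and treatment; the array pairs in the text join treatments within a line, which the models already hold. The arrays limit the precision of all values, and signals near the negative controls limit those of MXD3, MNT, MYCN and MLXIP. With each array left out in turn, the number of members called was 1 each time for IM in both lines (1 with all arrays) and 0 each time for the combination against control (1). It ranged from 1 to 3 for KBM5 against K562 (3), from 1 to 4 for IM in K562 (4), from 2 to 4 for IM in KBM5 (4) and from 0 to 4 for the difference between lines with IM (2). Calls over all genes also fell in most of these fits, and strongly for IM in K562 without a K562 array. Calls lost there are thus not particular to the members. The fall of MYC with IM in both lines lost its call (0 members called, limma adjusted p = 0.156) with the line left out of the model. In that model, which leaves the gap between the lines in the residual, 0 of all genes were called. For the combination against control the count was 0 after quantile normalization, with brighter genes alone, with log2(value + 16) and with the line left out. Over all genes 20, 22, 0 and 0 were called in the same order, against 35 in the main fit. For IM in K562 the count was 2 after quantile normalization, without MAX and MLX, and the cause was not tested. With the 99th percentile of the negative controls as background 1 member, MYC, was above it on all 8 arrays, against 5 with the 95th percentile. After quantile normalization MYC was also called higher in KBM5 than in K562, which made 4 members called. The changes of MYC relative to MXD1, MXI1 and, in K562, MXD3 kept their sign after quantile normalization and with log2(value + 16), and no called member changed its sign under any alternative run. The share of IM calls that were higher over both lines was 36.1%, and 42.8% after quantile normalization.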
